A study of Ailuropoda melanoleuca with 25 samples.

Results

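Liver and kidney of the giant panda (Ailuropoda melanoleuca) were compared by messenger RNA sequencing, with 1 library per organ from each of 5 pandas. The 10 libraries were taken by their organ labels from the 25 libraries of the series, which also hold heart, spleen, and lung. Libraries with the same number came from the same animal, so each liver was set against the kidney of its own panda. Panda 1 was a female labelled with age 27 and death from ovarian cancer, and panda 2 was a female labelled with age 9, whose cause of death is given as "ileac pssion". Pandas 3 and 4 were females and panda 5 was a male, all 3 labelled with age 0.5 and death from coronavirus infection. The labels give no unit for age, and no animal was treated or genetically changed. Because the tissue came from animals that had died of illness, every liver and every kidney carried its panda's disease and time since death as well. The young pandas also died in a year of their own, so age, illness, and year cannot be told apart.

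The liver is built mainly of hepatocytes, which release most plasma proteins, detoxify ammonia as urea, make bile acids, and store glycogen. The kidney filters plasma in the glomerulus and recovers glucose, amino acids, phosphate, and filtered protein in the proximal tubule, and then adjusts salt, water, and acid in the distal tubule and collecting duct. Both organs make glucose, metabolise steroids and drugs, and carry organic ions, so some gene families are divided between them. Expression was measured as FPKM, the fragments on a gene divided by gene length and library total. Each library was divided here by 1 factor so that the typical gene lay at the same level in all 10 libraries (scaled FPKM). Levels are per gene length in this unit, and differences are given as liver minus kidney of log2(scaled FPKM + 1), a scale that compresses changes of genes near 0. A gene was called a DEG at a Benjamini-Hochberg adjusted p below 0.05 in limma and a log2 difference above 2 or below -2. Gene names were taken from the study's list of tissue-specific genes. That list was drawn up on these same libraries, so the share of named genes called here is not independent evidence of any direction.

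Reads counted on genes ranged from 15925960 to 21383380 in the livers (median 18647136) and from 13982822 to 17336596 in the kidneys (median 16222940). Liver 3 and kidney 4 stood apart from the other libraries of their organ. The mean correlation of liver 3 with the other livers was 0.832, against 0.904 to 0.915 for the rest, and its scaling factor was 0.299, against 0.771 to 0.891. Kidney 4 correlated with the other kidneys at a mean of 0.856, against 0.919 to 0.925. Livers 2 and 4 came from pandas of different labelled age and were more alike than any other pair of livers, with a correlation of 0.99 against 0.816 to 0.963. The chi-square of their reads over its degrees of freedom was 33.7 across 14564 genes, above counting noise alone but below the 169 or more of the other pairs of livers. Whether both came from the pandas on their labels, or from separate livers, was not tested. The labels were used as given, both were counted as samples, and the pairing by panda and the contrast of young and older pandas rest on them. In this bulk tissue, fewer cells of a type and less RNA per cell cannot be told apart.

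Of 15755 genes tested, 686 were higher in the liver (4.35%) and 777 were higher in the kidney (4.93%). The 5 livers and 5 kidneys did not overlap in 564 of the liver DEGs and 676 of the kidney DEGs. The direction held in 5 of 5 pandas for 644 of the liver DEGs and 758 of the kidney DEGs. Both were counted among called genes only, where a large difference makes them likely, so they are not separate support for the calls. Liver DEGs were 46.9% of all DEGs. On the deposited FPKM without scaling between libraries they were 16.9% (377 against 1848), with a median log2 difference over all tested genes of -0.89 in place of -0.06. In each of the settings tried, 0 of these DEGs were called in the opposite direction. Without liver 3 and kidney 4, 756 and 890 genes were called, of which 591 and 702 were among the DEGs of the 10 libraries. Without pandas 2 and 4, 668 and 946 genes were called, of which 519 and 688 were among them. Of the 1274 named genes tested, 285 were higher in the liver (22.4%) and 313 in the kidney (24.6%), with a median log2 difference of -0.54. The genes of the lists below are all named genes, so their counts and medians are to be read against these values. A further 95 liver DEGs and 76 kidney DEGs came from the authors' transcript assembly and have no name.

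**Figure D1:**
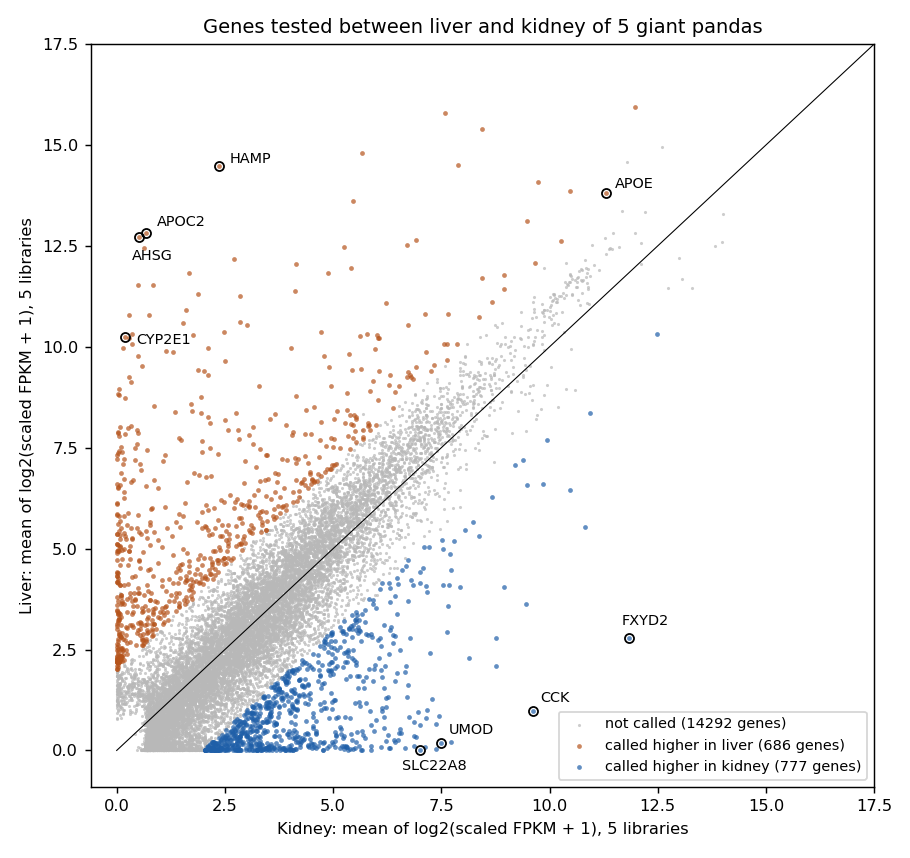
Mean log2(scaled FPKM + 1) of each tested gene in the 5 livers (vertical axis) and 5 kidneys (horizontal axis), with the 686 genes higher in the liver and the 777 genes higher in the kidney in colour and the leading named genes labelled. Liver DEGs such as AHSG and APOC2 reach the top left corner, and FXYD2 lies farthest toward the kidney.

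Among liver DEGs with a name, those of the largest difference were mostly secreted proteins. The 686 liver DEGs include 285 with a name, and the others are left out of this order. AHSG, which encodes the plasma glycoprotein fetuin-A, was at 16885, 4249, 3101, 4187, and 15697 scaled FPKM in livers 1 to 5 and at 0.0734, 0.892, 0.119, 0.649, and 0.556 in kidneys 1 to 5. Every liver lay far above every kidney (19271-fold by means), and the difference of the log2 values was 12.22 ± 0.49 (SE, n = 5 pandas, adjusted p = 3.11e-06). HAMP encodes hepcidin, the hormone that lowers iron uptake and release. It was at 3864, 39132, 72278, 70301, and 7723 scaled FPKM in the livers and at 0.320, 9.15, 1.81, 7.40, and 10.2 in the kidneys. Pandas 1 and 5 had the lowest liver values, and the lowest liver was still far above the highest kidney (log2 difference 12.11 ± 0.69, adjusted p = 1.63e-05). CYP2E1, a cytochrome P450 that oxidises ethanol and small solvents, was the steadiest of the leading liver genes. Its liver values were 1114, 1113, 1079, 1740, and 1162 scaled FPKM, with liver 4 the highest, and its kidney values were 0.0537, 0.131, 0.0217, 0.182, and 0.381 (log2 difference 10.06 ± 0.28, adjusted p = 1.69e-06).

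**Figure D2:**
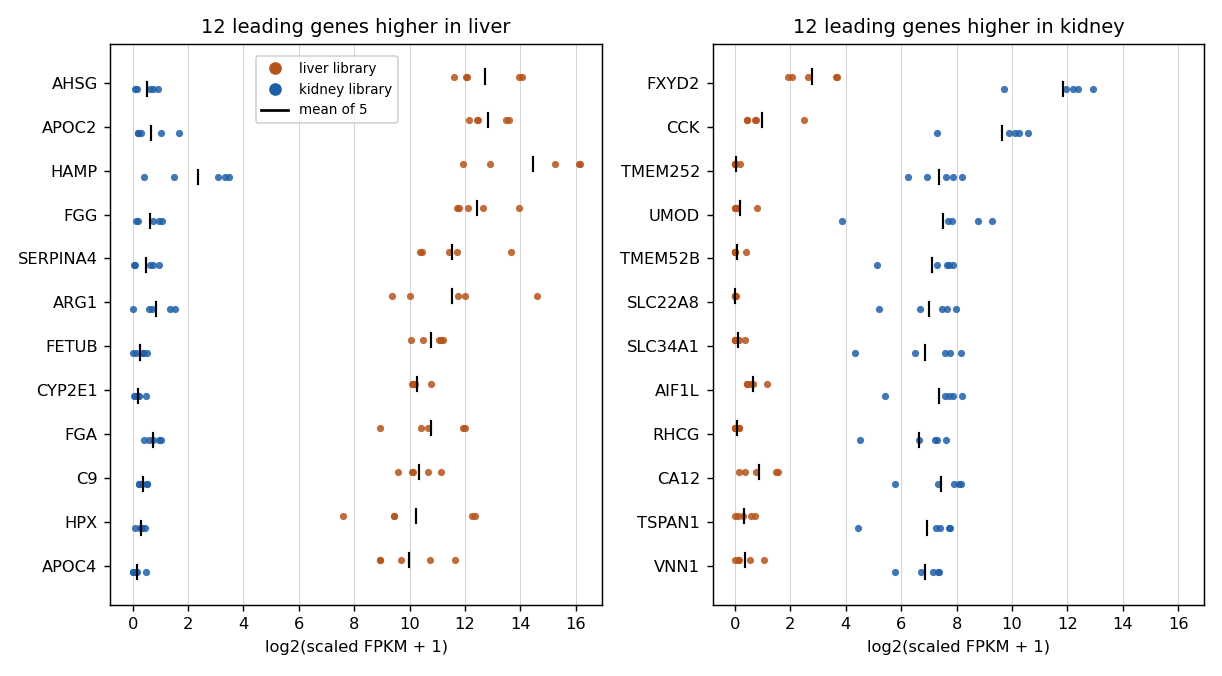
Expression as log2(scaled FPKM + 1) of the 12 named genes of the largest difference in each direction, with 1 point per library and a black line at the mean of each organ. The 24 genes were chosen among those whose livers and kidneys do not overlap. Kidney 4 is the lowest kidney in most of the kidney genes.

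Of 28 plasma carriers and acute phase proteins with an identifier, 27 were higher in the liver, against 22.4% of the named genes tested. The median log2 difference was 7.63, against -0.54 over the named genes and -0.06 over all genes tested. With the gene that had 0 kidney reads set at its lower bound the median was 7.75. Their summed level was 59832 to 199954 scaled FPKM in the livers and 548 to 1875 in the kidneys. FETUB, another fetuin, lay between 1069 and 2356 in the livers and between 0 and 0.418 in the kidneys (8366-fold by means, log2 difference 10.51 ± 0.33). HPX encodes hemopexin, which binds free heme, and its liver values of 4914, 697, 191, 686, and 5251 were highest in pandas 1 and 5. All 5 were above the highest kidney value of 0.349 (log2 difference 9.92 ± 0.69, adjusted p = 4.15e-05). SERPINA4, the kallikrein inhibitor kallistatin, ran the other way among the livers, with 12927 in liver 3 and 1341 to 3377 in the rest, against at most 0.928 in the kidneys (log2 difference 11.04 ± 0.53). The member that was not called was SERPINA7, the thyroxine carrier, which was listed at 5.69, 0, 2.90, 0, and 22.1 in the livers and at 0 in all kidneys (adjusted p = 0.0524).

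Clotting factors and their regulators were nearly all liver genes here, with 22 of 23 higher in the liver and a median log2 difference of 6.55. FGG, the fibrinogen gamma chain, was at 6466, 4423, 3481, 3381, and 15949 scaled FPKM in the livers and at 0.149, 0.942, 0.0962, 1.09, and 0.677 in the kidneys. Liver 5 was the highest, and the groups were separated by a log2 difference of 11.82 ± 0.43 (adjusted p = 2.56e-06). The alpha chain FGA (log2 difference 10.03 ± 0.47), plasminogen PLG (9.71 ± 0.41), and the protein C inhibitor SERPINA5 (9.26 ± 0.45) were also separated without overlap. F5, the cofactor of factor Xa, was at 62.8, 31.1, 4.38, 31.1, and 42.2 in the livers and at 7.26, 10, 5.49, 3.06, and 7.7 in the kidneys. Liver 3 lay within the kidney range, the log2 difference of 1.90 ± 0.48 did not reach the threshold of 2, and without liver 3 and kidney 4 it was 2.33 (adjusted p = 0.000133). SERPINF2, the plasmin inhibitor, was called at 2.24 ± 0.64 (adjusted p = 0.0308), with liver 3 at 29.9 inside the kidney range of 14.3 to 106, and this call was lost in 19 of 27 other settings.

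All 19 complement genes with an identifier were higher in the liver, with a median log2 difference of 4.71 (4.77 with 2 genes at their bounds). C9, which forms the pore of the membrane attack complex, was at 1636, 1119, 1081, 759, and 2261 scaled FPKM in the livers and at no more than 0.44 in a kidney (log2 difference 9.96 ± 0.35, adjusted p = 2.31e-06). C8A and C8B encode chains of the complex that C9 joins. C8B was at 424, 88.2, 53.4, 78.6, and 446 in the livers, and 0 of its reads were counted in any kidney. With the floor of 3 reads over the 5 kidneys the liver mean was at least 12605-fold higher. C8A and C8B were both highest in livers 1 and 5, as were C9 and C4BPA, the alpha chain of a complement inhibitor (log2 difference 7.35 ± 0.45).

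Of 20 genes of lipoproteins and their handling, 17 were higher in the liver and 2 in the kidney (median log2 difference 5.12). APOC2, the activator of lipoprotein lipase, was at 5529, 4504, 12186, 5673, and 11299 scaled FPKM in the livers and at 0.144, 1.05, 0.233, 2.16, and 0.137 in the kidneys. The separation was as wide as that of AHSG (log2 difference 12.14 ± 0.46, adjusted p = 2.56e-06). APOC4, APOC3, and APOA2 followed at log2 differences of 9.83 ± 0.46, 9.46 ± 0.41, and 9.42 ± 0.36, with liver 3 at 27434 in APOC3 against 2118 to 3880 in the other livers. APOE was the shared member. Its kidney values were 1948, 3290, 935, 10564, and 1581, and kidney 4 lay above liver 3 (7108) while the other livers held 13267 to 20960. It was called higher in the liver at 2.52 ± 0.73 (adjusted p = 0.0314), the difference was 3.33 without liver 3 and kidney 4, and the call was lost in 10 of 27 other settings.

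Both kidney DEGs of that list act where lipoprotein fat is taken up. ANGPTL4, an inhibitor of lipoprotein lipase, was at 28.6, 65.2, 37.7, 70.7, and 34.4 in the kidneys and at 0.435 to 2.33 in the livers (34.8-fold by means, log2 difference -4.33 ± 0.37, adjusted p = 0.000106). VLDLR, the very low density lipoprotein receptor, was even across kidneys at 12.7 to 17.4 and lay below 0.7 in each liver (36.4-fold, log2 difference -3.51 ± 0.23). ABCG5, part of a sterol exporter, was above every kidney in every liver but at a log2 difference of 1.5 ± 0.29, under the threshold.

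Bile acid genes were represented by 13 members with an identifier, and 10 were higher in the liver and 1 in the kidney (median log2 difference 3.02, or 3.33 with 1 gene at its bound). NR0B2, the repressor SHP of the bile acid receptor's circuit, was at 213 to 649 scaled FPKM in the livers and 0.541 to 1.15 in the kidneys (log2 difference 7.68 ± 0.32, adjusted p = 3.51e-06). AKR1D1, which reduces the sterol ring, reached 1362 in liver 3 and 103 to 242 in the others, against at most 0.294 in a kidney (7.63 ± 0.51). The activating enzyme SLC27A5 and the side-chain oxidase ACOX2 differed by 4.42 ± 0.45 and 3.86 ± 0.43. SLC10A2, the sodium-dependent carrier that recovers bile acids, went the other way. Its kidney values were 31.6, 18.4, 30.1, 5.74, and 63.0, and 2 reads were counted over all 5 livers (log2 difference -4.55 ± 0.44, adjusted p = 0.000208). The bile acid receptor NR1H4 was listed at 30.5 to 174 in the livers and 4.71 to 46.0 in the kidneys, which overlapped, and was not called (1.71 ± 0.47). FGF19, the hormone that represses bile acid synthesis, was at 7.55 and 12.3 in livers 2 and 4, at 0.0969 or 0 in the other livers, and at 0 in the kidneys (adjusted p = 0.109).

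The urea cycle and amino acid breakdown list held 26 genes with an identifier, of which 22 were higher in the liver and 2 in the kidney (median log2 difference 4.87). ARG1, the arginase that releases urea, was at 650, 4110, 24783, 3390, and 1036 scaled FPKM in the livers and at 0, 1.56, 0.611, 1.90, and 0.502 in the kidneys. Liver 3 was the highest and livers 1 and 5 the lowest, with a log2 difference of 10.70 ± 0.64 (adjusted p = 2.01e-05) and of 10.26 without liver 3 and kidney 4. CPS1, which fixes ammonia at the entry to the cycle, was far more even, at 642, 609, 685, 550, and 375 in the livers and 0.108 to 0.626 in the kidneys (8.82 ± 0.27, adjusted p = 1.69e-06). OTC, the next enzyme, was at 102 to 601 in the livers, and 3 reads were counted on it over the 5 kidneys against 18663 over the livers. TDO2, which opens the tryptophan ring, was at 1470 to 1725 in livers 2, 3, and 4 and at 101 and 206 in livers 1 and 5 (8.97 ± 0.62). The list sum followed the same order, at 24805 to 40151 in livers 2, 3, and 4 and 6283 to 6318 in livers 1 and 5.

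The kidney members of this list were a pair of oxidative and hydroxyproline enzymes. DAO, the peroxisomal oxidase of D-amino acids, was at 151, 169, 97.6, 38.8, and 150 in the kidneys and 1.70 to 18.5 in the livers (15.0-fold, log2 difference -3.98 ± 0.44, adjusted p = 0.000405). HOGA1, the last enzyme of hydroxyproline breakdown, was at 98.4 to 637 in the kidneys and 17.0 to 106 in the livers, with kidney 4 below liver 3 (-2.55 ± 0.47, and -3.18 without liver 3 and kidney 4). FAH and CTH, of tyrosine and cysteine metabolism, were not called, at log2 differences of 1.55 ± 0.54 and 1.31 ± 0.41 with overlapping organs.

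Glucose, glycogen, and ketone metabolism had 9 genes with an identifier, and 7 were higher in the liver and 1 in the kidney (median log2 difference 3.74). GYS2, the liver glycogen synthase, was nearly constant across livers at 37.7, 43.4, 43.3, 33.6, and 44.0, and 0 reads were counted on it in the kidneys. The liver mean was at least 3356-fold higher with a floor of 3 reads over the kidneys (log2 difference 5.36 ± 0.24, adjusted p = 5.12e-06). PFKP, the platelet form of phosphofructokinase, was a kidney DEG at 13.6 to 43.1 against 1.44 to 2.88 (12.6-fold, -3.10 ± 0.28). PCK2, which makes phosphoenolpyruvate in mitochondria, was at 146 to 376 in the livers and at 10.9 to 64.5 in the kidneys (6.04-fold, 2.69 ± 0.39, adjusted p = 0.00165). FGF21, a fasting hormone, was at 281, 1.94, 0, 1.34, and 367 in the livers and at most 0.152 in a kidney, and it was not called (3.82 ± 1.28, adjusted p = 0.0526).

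Transcription factors of hepatocytes and hormones released by the liver were measured in smaller numbers. All 6 factors with an identifier were higher in the liver (median log2 difference 4.51, or 5.35 with 1 gene at its bound). FOXA3, a pioneer factor of liver genes, was at 138, 64.3, 207, 44.4, and 66.5 scaled FPKM in the livers, and 3 reads were counted over the 5 kidneys. ATF5 (5.69 ± 0.70), NR5A2 (5.01 ± 0.32), and ONECUT2 (4.02 ± 0.37) were also separated from the kidneys without overlap. All 10 genes of iron control and hormone secretion were liver DEGs, with a median of 3.67 (4.01 with 1 gene at its bound). TFR2, the iron sensor upstream of hepcidin, was at 603, 285, 16.9, 171, and 250 in the livers and 0.963 to 8.86 in the kidneys (5.43 ± 0.54). IGF2, a growth factor, was at 28.2 to 138 against 0.969 to 3.72 (31.6-fold, 4.26 ± 0.28). INHBE, an inhibin subunit, had its lowest liver value of 1.02 in liver 3, which lay under the highest kidney value of 1.59 (4.23 ± 0.87, and 5.54 without liver 3 and kidney 4).

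**Figure D3:**
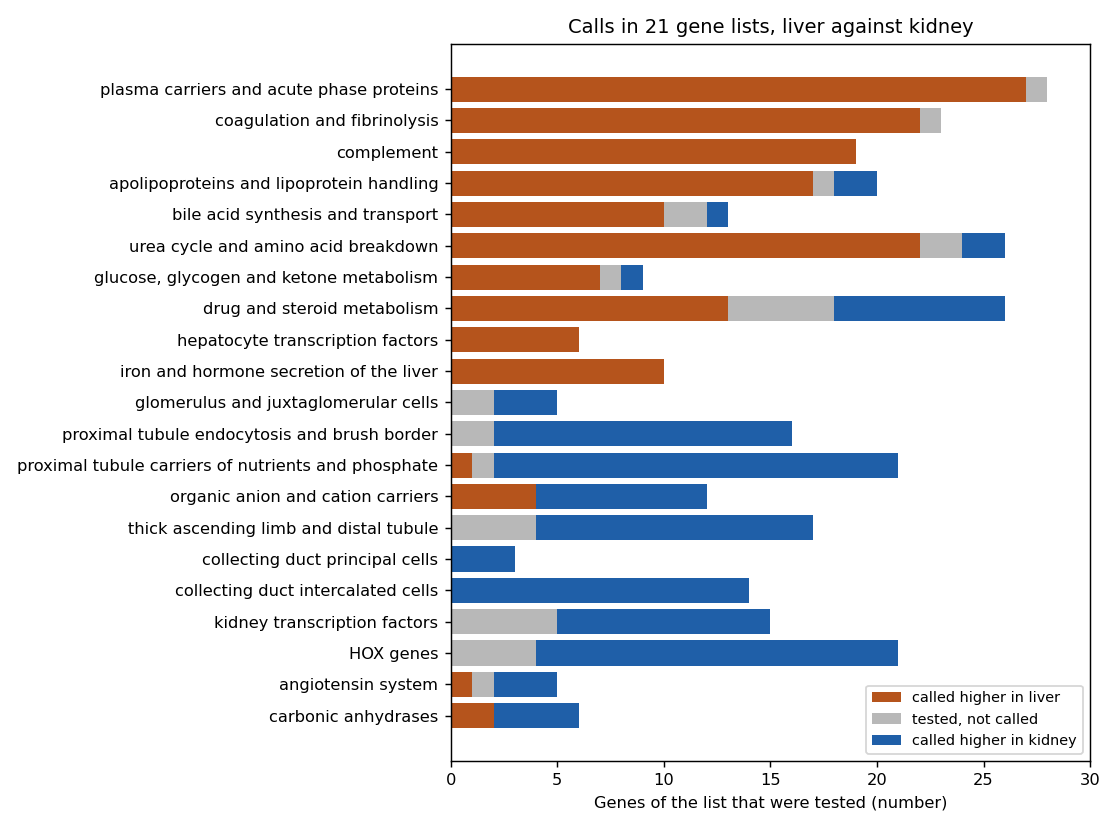
Number of tested genes in each of 21 gene lists that were higher in the liver, higher in the kidney, or not called. Lists of plasma proteins, clotting, and complement hold liver DEGs only beside 1, 1, and 0 genes that were not called, and the intercalated cell list holds 14 kidney DEGs of 14.

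Kidney DEGs included genes of the glomerulus, proximal tubule, thick ascending limb, distal tubule, and collecting duct. FXYD2, the gamma subunit that tunes the sodium pump, had the largest difference among named kidney genes. It was at 3940, 7750, 5365, 833, and 4674 scaled FPKM in kidneys 1 to 5 and at 5.17, 2.80, 11.8, 3.12, and 11.6 in livers 1 to 5. Kidney 4 was the lowest kidney and still well above each liver (653-fold by means, log2 difference -9.04 ± 0.49, adjusted p = 1.29e-05). CCK, which encodes the peptide hormone cholecystokinin, was at 1098, 1219, 944, 155, and 1546 in the kidneys and at 0.346 to 4.65 in the livers (739-fold, -8.65 ± 0.55). The difference was -9.71 without liver 3 and kidney 4.

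Several leading kidney genes have less studied roles in the kidney. TMEM252 and TMEM52B were at 74.9 to 292 and 33.8 to 234 in the kidneys, with 1 read each over the 5 livers (log2 differences -7.33 ± 0.36 and -7.05 ± 0.42). AIF1L, an actin-binding protein, and the tetraspanin TSPAN1 differed by -6.71 ± 0.49 and -6.58 ± 0.49. VNN1, a pantetheinase of the cell surface, was at 103, 53.7, 158, 140, and 165 in the kidneys and 0 to 1.09 in the livers (-6.49 ± 0.31, adjusted p = 6.94e-06). Unlike in the other leading kidney genes, kidney 4 lay within the range of the other kidneys.

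The glomerulus was represented by 5 genes with an identifier, and 3 were higher in the kidney (median log2 difference -2.87). NPHS1, which encodes nephrin of the filtration slit, was at 0.616 in kidney 4 and 7.24 to 25.4 in the other kidneys, against at most 0.159 in a liver (195-fold, -3.16 ± 0.51, adjusted p = 0.00284). Without liver 3 and kidney 4 the difference was -3.94. MAGI2 and CRB2, which are also made by podocytes, did not pass the threshold with a pseudocount of 1. All 5 genes passed with a pseudocount of 0.1, a setting that called 1947 kidney DEGs among all 15755 genes tested in place of 777.

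Proximal tubule genes of protein uptake and the brush border were higher in the kidney for 14 of 16 members (median log2 difference -3.67, or -3.75 with 1 gene at its bound). LRP2 and CUBN encode megalin and cubilin, the receptors that take up filtered protein. LRP2 was at 51.0, 27.1, 55.4, 11.8, and 56.6 in the kidneys and at 0.00428, 0.00439, 0.128, 0.0385, and 0.0130 in the livers (1074-fold, -5.12 ± 0.37, adjusted p = 4.84e-05). CUBN was at 7.77 to 38.9 in the kidneys and below 0.1 in each liver (359-fold, -4.54 ± 0.35). GC, the vitamin D carrier in plasma that megalin takes up, was the mirror image, at 1811, 617, 1081, 560, and 4728 in the livers and 0.152 to 12.1 in the kidneys (8.53 ± 0.30, adjusted p = 2.31e-06). TINAG, an antigen of the tubule basement membrane, and CDHR2, a protocadherin of the brush border, differed by -5.19 ± 0.54 and -4.26 ± 0.35.

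Carriers of nutrients and phosphate in the proximal tubule were kidney DEGs in 19 of 21 members, with a median log2 difference of -4.52. SLC34A1, the sodium-phosphate carrier, was at 285, 189, 89.5, 19.4, and 217 scaled FPKM in the kidneys, at 0 in livers 1, 2, and 5, and at 0.280 and 0.120 in livers 3 and 4 (-6.77 ± 0.55, adjusted p = 8.87e-05). The lactate carrier SLC5A12, the citrate carrier SLC13A2, and SLC6A18, a relative of the neutral amino acid carriers, followed at -6.35 ± 0.39, -5.99 ± 0.42, and -5.91 ± 0.51. Kidney 4 was the lowest kidney in each of these 4 genes. The exception was SLC38A3, a glutamine carrier, which was at 342, 408, 176, 377, and 150 in the livers and at 63.9, 86.4, 38.8, 14.7, and 44.5 in the kidneys (5.85-fold, 2.62 ± 0.45, adjusted p = 0.00376). This liver call was lost on the deposited FPKM without scaling.

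Organic ion carriers were divided between the organs, with 8 of 12 higher in the kidney and 4 higher in the liver. In the kidney, SLC22A8 and SLC22A6 take organic anions from blood into the tubule cell. SLC22A8 was at 179, 250, 101, 35.4, and 201 scaled FPKM, and a single read was counted over the 5 livers (-6.99 ± 0.42, adjusted p = 2.01e-05). SLC22A6 had 0 liver reads and kidney values of 9.90 to 92.3, at least 1950-fold higher with a floor of 3 reads over the livers. SLC47A2, which passes organic cations into urine, and the urate carrier SLC22A12 differed by -6.16 ± 0.43 and -5.39 ± 0.41.

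Other members of these carrier families were on the liver side, most widely separated in SLC22A9. SLC22A9 was at 88.5, 43.3, 109, 41.9, and 81.0 in the livers, with 2 reads over the 5 kidneys (log2 difference 6.09 ± 0.30, adjusted p = 7.72e-06). SLC17A2 and SLC17A4, relatives of the phosphate and urate carriers, differed by 4.23 ± 0.50 and 3.13 ± 0.39, while their relatives SLC17A1 and SLC17A3 were kidney DEGs. SLC22A10 was called at 2.91 ± 0.72 (adjusted p = 0.0177), with 55.7 and 71.8 in livers 1 and 5 and 1.48 to 6.71 in livers 2, 3, and 4. SLC22A9 and SLC22A10 belong to a multigene family, and reads could be split between near copies, so their values are uncertain.

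**Figure D4:**
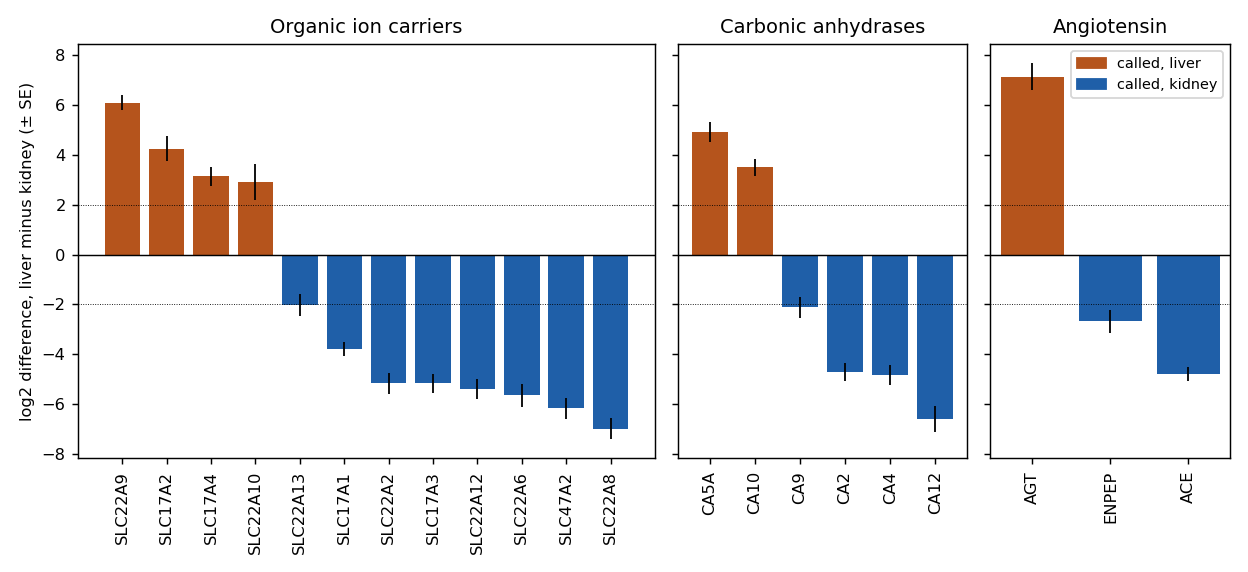
Log2 difference of liver minus kidney with its SE for members of 3 families that are divided between the organs: organic ion carriers, carbonic anhydrases, and genes of the angiotensin system. In each family some members lie beyond 2 on the liver side and others beyond -2 on the kidney side.

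Of 17 genes of the thick ascending limb and distal tubule, 13 were higher in the kidney and 0 in the liver (median log2 difference -3.77, or -4.89 with 3 genes at their bounds). UMOD encodes uromodulin, the protein that the thick ascending limb releases into urine. It was at 437, 208, 626, 13.6, and 230 scaled FPKM in the kidneys and at 0, 0, 0.744, 0.0400, and 0.0314 in the livers. Kidney 4 was more than 10-fold below each other kidney, and the difference was -7.32 ± 0.66 (adjusted p = 0.00015), or -8.54 without liver 3 and kidney 4. SLC12A3, the thiazide-sensitive sodium chloride carrier, was at 146, 126, 93.8, 15.7, and 101 (-6.23 ± 0.46). CALB1, the calcium buffer calbindin of the distal tubule, was at 157, 22.7, 245, 4.88, and 287, with 2 reads over the livers (-6.02 ± 0.79, adjusted p = 0.000978). CASR, TRPV5, KCNJ10, and CNNM2 were tested and not called, and the call of CLDN16, a claudin of the thick ascending limb, was lost in 12 of 27 other settings.

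The collecting duct was measured through its 2 cell types. All 3 principal cell genes with an identifier were higher in the kidney. HSD11B2, which inactivates cortisol so that aldosterone can act, was at 130, 117, 81.0, 12.1, and 115 in the kidneys and at 0.174 to 1.02 in the livers (179-fold, -5.61 ± 0.45, adjusted p = 8.38e-05). FXYD4, another regulator of the sodium pump, was at 46.5 to 108 in 4 kidneys and 4.79 in kidney 4 (-5.09 ± 0.56). AVPR2, the vasopressin receptor, was near the threshold at -2.02 ± 0.36 and was lost in 6 of 27 other settings. Among intercalated cell genes, which move acid and base, all 14 were higher in the kidney (median log2 difference -4.28, or -5.22 with 3 genes at their bounds). The ammonia channel RHCG was at 155, 197, 99.1, 21.6, and 150 in the kidneys, at 0 in livers 1 to 3, and at 0.0974 and 0.115 in livers 4 and 5 (2940-fold, -6.60 ± 0.47, adjusted p = 4.46e-05). ATP6V0A4, a subunit of the proton pump, was at 50.2 to 61.6 in 4 kidneys, 11.1 in kidney 4, and at most 0.0702 in a liver (-5.34 ± 0.38). TMEM213 and the anion exchanger SLC4A9 differed by -6.09 ± 0.47 and -5.87 ± 0.52.

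Carbonic anhydrases, which convert carbon dioxide and bicarbonate, were likewise divided, with 4 of 6 higher in the kidney and 2 in the liver. CA12 was at 271, 160, 241, 53.2, and 286 scaled FPKM in the kidneys and 0.115 to 1.91 in the livers (210-fold, log2 difference -6.59 ± 0.54). CA2, the cytosolic form, was at 63.0 to 340 against 2.95 to 13.5 (29.7-fold, -4.69 ± 0.36). In CA4, the membrane-anchored form, kidney 4 was the highest, at 323 against 105 to 142 in the other kidneys and at most 8.22 in a liver (-4.81 ± 0.40). CA9 was called at -2.12 ± 0.41 although kidney 4, at 3.01, lay inside the liver range of 1.14 to 5.71. On the liver side, the mitochondrial CA5A was at 41.5, 16.3, 96.3, 17.1, and 20.7, with 2 reads over the kidneys (4.92 ± 0.40, adjusted p = 8.84e-05). CA10, a relative without known catalytic activity, was at 5.80 to 25.4 in the livers and 0.139 to 0.403 in the kidneys (61.5-fold, 3.50 ± 0.34).

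The angiotensin system raises blood pressure through peptides cut from a plasma protein. AGT, the precursor angiotensinogen, was at 1645, 1790, 72.9, 1713, and 855 scaled FPKM in the livers and at 2.38, 14.3, 0.420, 33.7, and 1.30 in the kidneys. Liver 3 stood below the other livers but above every kidney (log2 difference 7.13 ± 0.55, adjusted p = 6.39e-05, and 8.74 without liver 3 and kidney 4). The converting enzyme ACE was at 26.5, 57.1, 27.2, 34.9, and 22.7 in the kidneys and 0.141 to 0.274 in the livers (182-fold, -4.79 ± 0.29). ENPEP, the aminopeptidase that trims angiotensin, was a kidney DEG as well (-2.68 ± 0.47).

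Drug and steroid metabolism was divided as well, with 13 of 26 tested genes higher in the liver and 8 in the kidney (median log2 difference 2.02). CYP1A2, which oxidises aromatic amines and caffeine, was at 764, 133, 36.8, 165, and 697 in the livers and 0.208 to 4.79 in the kidneys (170-fold, 6.30 ± 0.54, adjusted p = 0.000111). HSD3B1, of steroid synthesis, and the glucuronidating UGT2A1 differed by 7.27 ± 0.44 and 7.05 ± 0.39, and UGT2A1 also has near copies that could share its reads. The kidney held CYP24A1, which inactivates vitamin D, at 121, 50.4, 43.2, 16.1, and 148, with a single read over the livers (-5.86 ± 0.46, adjusted p = 6.85e-05). VDR, the vitamin D receptor, was at 14.4 to 84.9 in the kidneys and 0.0810 to 1.21 in the livers (127-fold, -5.00 ± 0.42). GBA3, a cytosolic beta-glucosidase, and NAT8, which acetylates cysteine conjugates, were the leading kidney genes of the list (229-fold, -6.38 ± 0.36, and 110-fold, -6.01 ± 0.51). SULT1C3, a sulfotransferase, was called in the liver at 3.45 ± 1.01, but it was listed at 26.2, 0, 106, 0, and 52.4 in livers 1 to 5, and the call was lost in 13 of 27 other settings.

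Transcription factors of the nephron and genes of the HOX clusters, which set position along the body axis, were kidney genes where they were called. Of 15 kidney factors, 10 were higher in the kidney and 0 in the liver (median log2 difference -2.52, or -4.37 with 5 genes at their bounds). PAX8, needed to form nephrons, was at 70.0, 77.6, 47.9, 12.9, and 54.8 scaled FPKM in the kidneys and 0 to 0.519 in the livers (301-fold, -5.32 ± 0.41). TFCP2L1, a factor of the collecting duct, was at 6.12 to 31.6 (183-fold, -4.08 ± 0.37), and EMX1 differed by -4.37 ± 0.52 with 3 liver reads.

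All 21 HOX genes with an identifier were tested, 17 were higher in the kidney, and 0 were higher in the liver (median log2 difference -2.87, or -4.76 with 11 genes at their bounds). Their summed level was 0.606 to 2.21 scaled FPKM in the livers, 177 in kidney 4, and 225 to 311 in the other kidneys. HOXA7 was at 22.5, 27.8, 19.9, 25.1, and 18.4 in the kidneys, with 3 reads over the livers (-4.46 ± 0.23, adjusted p = 1.04e-05). HOXD8 was at 42.7, 35.7, 61.1, 26.8, and 55.2 against 0 to 0.656 (197-fold, -5.17 ± 0.28), HOXB6 at 13.1 to 65.5 (-4.76 ± 0.31), and HOXA9 at 16.2 to 33.0 (-4.34 ± 0.26). In HOXA7 and HOXA9 kidney 4 lay within the range of the other kidneys, but in HOXD8 and in the list sum it was the lowest kidney. HOXA11, HOXB9, HOXC5, and HOXD11 did not pass the threshold with a pseudocount of 1. All 21 passed with a pseudocount of 0.1, a setting that called 1947 kidney DEGs among all 15755 genes tested in place of 777.

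Markers of cells other than hepatocytes and nephron epithelium were read in the same libraries. Of 8 tested genes of liver endothelium and stellate cells, 7 were higher in the liver and 0 in the kidney, and their sum was 95.5 in liver 3 and 313 to 464 in the other livers, against 10.7 to 15.3 in the kidneys. The member that was not called was LRAT, and COLEC10 and COLEC11 stand in the complement list too. GDF2, a growth factor made by stellate cells, was at 27.4, 50.1, 0.139, 61.6, and 28.5 in the livers with 1 read over the kidneys, and COLEC10 and COLEC11 were also lowest in liver 3, at 0.431 and 0.214. The count of 7 was 2 without pandas 2 and 4, so it rested in part on those libraries. CLEC1B, of sinusoidal endothelium, did not follow liver 3 so closely, at 115, 233, 79.3, 300, and 256 in the livers and 7.12 to 11.9 in the kidneys (21.6-fold, 4.15 ± 0.32).

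Macrophage markers were led by MS4A4A and CD5L, which were higher in the liver (log2 differences 4.51 ± 0.42 and 3.87 ± 0.72) among 4 tested, and the list sum was 30.5 to 137 in the livers and 0.387 to 1.25 in the kidneys. Of 7 lymphocyte markers tested, limma called 0 in either direction, against 1 in the liver after quantile normalization. The list sum was 153 in liver 3, 30.8 to 42.2 in the other livers, and 23.9 to 47.8 in the kidneys. The size of the gap of liver 3 depends on the scaling, with a factor of 0.299 against 0.771 to 0.891 in the other livers. All 3 tested genes of bile duct epithelium were higher in the kidney, and tubule and collecting duct cells are known to express them too (EPCAM -3.09 ± 0.59, KRT7 -2.97 ± 0.55, PKHD1 -2.23 ± 0.50), and 0 of the 3 were called in the young pandas alone. MYL3, among 5 tested heart genes, and NAPSA, an aspartic peptidase of lung that the proximal tubule also makes, among 4 tested lung genes, were higher in the kidney (-2.69 ± 0.52 and -3.54 ± 0.58). The sum of the heart genes was 40.2 and 35.7 in livers 3 and 4, 2 to 4.87 in the other livers, and 17.2 to 61.6 in the kidneys. Of 7 stroma genes, PCOLCE was higher in the liver and CCDC80 and FNDC1 in the kidney. None of 3 adrenal genes with an identifier was expressed high enough to be tested, and their sum was at most 0.590 in a kidney. The part of these cells in the results above was not tested.

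**Figure D5:**
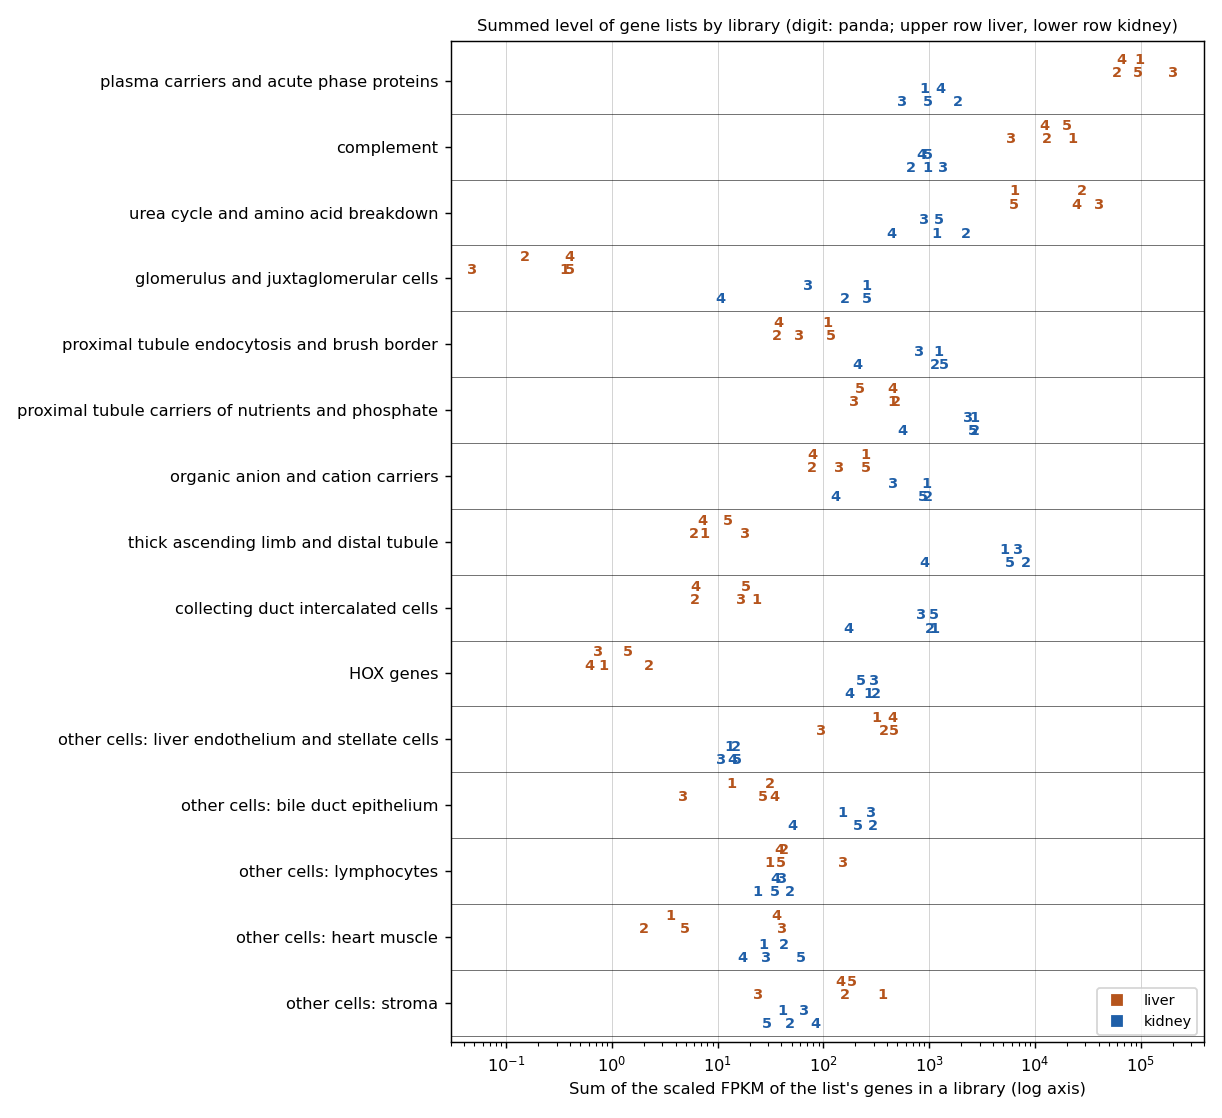
Summed scaled FPKM of the genes of 15 lists in each library on a log axis, with livers and kidneys in different colours and the digit giving the panda. Liver and kidney sums lie apart in the plasma protein, HOX, and intercalated cell lists, and kidney 4 is the lowest kidney in the tubule, glomerulus, HOX, and bile duct lists.

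The tubule lists were lower in kidney 4 as a group, and so were kidney lists outside the tubule. The glomerulus list summed to 10.5 scaled FPKM in kidney 4 and 71.6 to 255 in the other kidneys. The kidney transcription factors summed to 56.7 (235 to 369), the HOX genes to 177 (225 to 311), and the bile duct markers to 51.1 (152 to 295). In the tubule, the sum of kidney 4 was 556 for the proximal tubule carriers (2342 to 2706 in the other kidneys). It was 897 for the thick ascending limb and distal tubule (5123 to 8254), and 172 for intercalated cells (837 to 1114). The apolipoprotein list had its highest kidney sum in the same library, at 11029 against 1395 to 3804 in the other kidneys. Most of that sum was APOE, so it does not describe the list as a whole. Among liver lists, liver 3 had the lowest sum for clotting (11243 against 16162 to 45017) and complement (5876 against 12258 to 22416). On the scaled values it had the highest sum for plasma carriers (199954 against 59832 to 97246) and for urea and amino acid genes (40151). Both ranks rest on the scaling. Division by its factor of 0.299, against 0.771 to 0.891 in the other livers, raised liver 3 most. Of the plasma carriers named above, SERPINA4 was highest in liver 3, while AHSG, HPX, and AGT were lowest there. Most of the urea and amino acid sum was ARG1, so it does not describe that list as a whole. Without liver 3 and kidney 4, the counts were 23 of 23 clotting genes in the liver and 15 of 17 distal tubule genes, 20 of 21 nutrient carriers, and 4 of 5 glomerulus genes in the kidney. The liver calls of FBP1, of glucose synthesis, HAAO, of tryptophan breakdown, and SULT1C3 were lost, as was the kidney call of the stroma gene FNDC1.

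A set of 70 tested genes stands in the study's liver list and in its kidney list at once, and direct comparison of the organs placed 44 of them in the liver, 23 in the kidney, and 3 (MST1, ABCC11, and PROM2) in neither. Liver members included HRG, GC, APOB, and SERPINC1, and kidney members included CDH16, AMN, PDZK1, SLC22A12, and DAO. This split is a description of genes that the study chose on the same samples.

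The liver minus kidney difference was also compared between the 3 young pandas (3, 4, and 5) and the older pandas 1 and 2. By limma, 0 genes had a different organ contrast at an adjusted p below 0.05, the smallest adjusted p was 0.997, and 93 genes had an unadjusted p below 0.05. With 3 against 2 animals this does not show that the contrast was alike. In the young pandas alone, 555 genes were higher in the liver and 597 in the kidney, and 527 and 570 of these were among the DEGs of all 5 pandas.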

How the data were processed

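The labels describe tissue of newly dead pandas kept in liquid nitrogen. The authors aligned 150-base read pairs to ailMel1 with HISAT2, added transcripts assembled by Cufflinks from pooled libraries, and used HTSeq in union mode for the counts. The authors deposited FPKM computed from count and gene length, with 1 column per library. Whole reads were recovered from its steps for 24207 of 24207 genes above 0 (100% within 0.05 reads), and floors from them cover only counting error. FPKM was divided by median-ratio factors of the 10 libraries. Genes with a mean deposited FPKM above 1 in either organ were fitted on log2(scaled FPKM + 1) in limma 3.58.1 (R 4.3.3) with a variance trend and the panda as a block, after a test on simulated data. Folds are ratios of mean scaled FPKM and are not given where the lower organ had 1 to 3 reads in all. Genes with near copies could share reads and are uncertain.

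Same-numbered libraries came from the same animal. After organ means were removed they correlated at 0.05 to 0.55 (median 0.28, above 0.1 in 4 of 5 pandas), against -0.43 to 0.25 (median -0.03) between pandas. The study's tissue-specific list named 1778 identifiers, 15 of them read by their description and 74 only as locus numbers. Named in the text are the 12 leading genes without overlap in each direction, up to 4 DEGs in each direction of each list, fixed pairs, and members not called where a sentence needed them. Some genes that this rule takes are not reported here. The genes and lists were chosen with earlier results of these data known. The alternatives were no scaling, quantile normalization, a pseudocount of 0.1, other filters, no replicate block, libraries or pandas left out, all 25 libraries, and limma-voom on recovered reads. Leaving out pandas 2 and 4 was chosen after seeing the data. Scaling, read recovery, and plots used numpy 2.4.6, pandas 2.3.3, scipy 1.17.1, and matplotlib 3.10.9 in Python 3.11.15.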

Additional observations from a re-analysis of the deposited data

Results flagged for a closer look

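In each group of 5 libraries, the highest or lowest value was examined, for genes on the scale of log2(scaled FPKM + 1), for a gap to its nearest neighbour of more than 0.71 of the whole range (Dixon's critical value for 5 samples). Chance gives such a gap in about 1 of 20 groups, and 19 were found in 264 groups of the named genes. The values below are scaled FPKM, on which the gaps would differ. Liver 3 stood apart in its scaling factor (0.299) and in the number of genes above 0 (17245). It was also apart in APOC3 (27434 scaled FPKM, above the other livers) and in AGT (72.9), GDF2 (0.139), and F5 (4.38), where it was below them. Liver 4 was above the other livers in CYP2E1 (1740).

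The remaining 14 gaps were all in kidney 4. It was above the other kidneys in CA4 (323 scaled FPKM). It was below them in CCK (155), AIF1L (41.8), TMEM52B (33.8), TSPAN1 (20.9), SLC12A3 (15.7), SLC6A18 (14.1), PAX8 (12.9), HSD11B2 (12.1), ATP6V0A4 (11.1), FXYD4 (4.79), ACOX2 (4.05), CA9 (3.01), and APOA2 (0.534).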

How the results depend on the processing

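In the 27 other settings 0 of the DEGs were called in the opposite direction, and 247 of the 299 named DEGs examined were called in all of them. The numbers of DEGs depended on the scale. On the deposited FPKM without scaling they were 377 in the liver and 1848 in the kidney. With a pseudocount of 0.1 there were 1947 kidney DEGs (972 in the liver), and limma-voom on recovered reads gave 1061 and 2043, and the cause of these shifts was not tested. Leaving out 1 panda in turn gave 641 to 708 liver DEGs and 702 to 927 kidney DEGs, the most in the kidney without panda 4. Leaving out single libraries gave 613 to 735 and 685 to 899. Without the replicate block there were 660 and 777 DEGs, and among the named DEGs 1 call (SERPINF2) was lost. Without pandas 2 and 4, a setting chosen after seeing the data, there were 668 and 946. The contrast between young and older pandas called 0 genes in all 10 other settings tried. The named calls lost most often were SERPINF2 (19 of 27 settings), SULT1C3 (13), CLDN16 (12), APOE, ONECUT1, and PTH1R (10 each), FBP1, FNDC1, GDF15, HOXD10, and PCOLCE (9 each), SDS (8), CA9 and CLU (7 each), and AVPR2 and SLC22A13 (6 each), and the cause was not tested. A count of 0 allows up to 3 reads, 0.14 to 0.215 deposited FPKM for a gene of 1 kb, before scaling. After division by the factors this is higher in the livers (factors 0.299 to 0.891) and lower in the kidneys (factors 1.14 to 1.95).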

Other observations

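Grouped by symbol after the values were seen, 38 of 83 named solute carriers (SLC) tested were higher in the kidney (45.8%, against 24.6% of all named genes tested) and 20 were higher in the liver (24.1%, against 22.4% of all named genes tested). Kidney members included the anion exchangers SLC4A1 and SLC26A4 and the zinc carrier SLC30A2, and the liver members included the citrate carrier SLC13A5, the manganese exporter SLC30A10, and the glutamate carrier SLC1A2. Claudins seal or open the space between epithelial cells. Of 6 claudins, CLDN2, CLDN8, CLDN16, and CLDN19 were higher in the kidney (66.7%) and CLDN14 in the liver (16.7%). The CLDN16 call was lost in 12 of 27 other settings. Of 11 potassium channel subunits, KCNIP2, KCNK5, KCNJ1, and KCNJ16 were higher in the kidney (36.4%) and 0 in the liver. Of 8 ABC transporters, the canalicular exporters ABCB4, ABCB11, and ABCC2 were higher in the liver (37.5%) and ABCC4 in the kidney (12.5%). Claudins, potassium channels, and ABC transporters are small families. Their shares were not tested against the 24.6% and 22.4% of all named genes tested in the kidney and the liver. All these genes were named by the study's own tissue lists, so the shares describe that choice as well as the organs.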
